A study of Homo sapiens with 22 samples.

Results

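The data were RNA-sequencing (RNA-seq) values of 32 genes of cholesterol synthesis, sterol regulation, sterol transport and fatty acid synthesis in MDA-MB-231, a breast adenocarcinoma cell line of the TNBC type. The genes were listed by symbol and function, with earlier results of these data known. They were 18 enzymes of cholesterol synthesis and 5 genes of the sterol sensor and its transcription factors. The others were 6 genes of sterol transport and uptake and 3 of fatty acid synthesis. All 32 symbols were found among the 20668 in each file, and all 32 passed the filter on low values that kept 12713 genes. Cells had been held for days in phenol red-free medium with charcoal-stripped serum. They then received vehicle, 100 nM dexamethasone (Dex) or 10 µM compound A (CpdA), each ligand for 2 h or 4 h. Each of the 5 groups held 2 samples labelled as replicates, and the headings of the 2 vehicle samples name different times. Dex is a synthetic glucocorticoid that activates the glucocorticoid receptor (GR), and CpdA is a plant-derived selective GR modulator. Times were matched between the ligands and doses were not, and all 10 samples come from a single cell line. Values are RPKM, reads scaled to the length of the transcript and to the mapped reads of the library, and so can be set side by side between genes as levels per length.

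Cells make cholesterol from acetyl-CoA through the mevalonate and squalene intermediates. The amount made is set largely by SREBP transcription factors, the products of SREBF1 and SREBF2, which are held in the endoplasmic reticulum with the escort protein SCAP as long as INSIG proteins bind it in the presence of sterols. When sterols fall, SCAP carries the SREBPs to the Golgi, where they are cut, and the freed fragment enters the nucleus and switches on the synthesis enzymes and INSIG1 itself. When sterols are plentiful, oxysterols activate the LXR receptors, whose textbook targets include the sterol exporters ABCA1 and ABCG1, the ubiquitin ligase MYLIP and SREBF1. INSIG1 and HMGCS1 are thus commonly read as SREBP outputs, and ABCA1 and MYLIP as LXR outputs.

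The treatments and the cell line were checked in the same files. FKBP5, a chaperone gene induced by GR, lay at 5.94 to 7.06 RPKM with vehicle and at 73.4 to 212 RPKM with Dex, and HSPA6, an inducible HSP70 chaperone, lay at 0.33 to 0.46 RPKM with vehicle and 11.6 to 54.4 RPKM with CpdA. Of the markers listed for this mesenchymal line, VIM lay at 1267 to 1464 RPKM and AXL at 212 to 264 RPKM, while ESR1 and PGR did not exceed 0.00484 RPKM in any sample. CDH1 lay at 0.226 to 0.465 RPKM, and EPCAM, which had been listed as a gene that should be near 0 in this line, lay at 8.02 to 10.6 RPKM. The leukocyte gene PTPRC reached at most 0.063 RPKM and the endothelial gene PECAM1 at most 0.324 RPKM. Depth was known only in relative terms and, with vehicle replicate 1 set to 1, ranged up to 1.212.

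In 2 groups, vehicle and Dex at 4 h, the replicates differed from each other in ways that touch these genes. The sample labels give the vehicle samples no time, but the column heading of vehicle replicate 1 names 2 h and that of replicate 2 names 4 h, so that time and replicate cannot be told apart in this group. The sterol genes were lower in vehicle replicate 2 in 25 of 32 cases, against 50.8% of all genes tested, with a median log2 difference of -0.12 over the members and of -0.0026 over all genes. The log2 difference of vehicle replicate 2 from replicate 1 was -0.64 for INSIG1 and -0.48 for both HMGCS1 and INSIG2. Comparisons with vehicle are therefore also given against either vehicle sample alone where that changed a call of a gene described below. By the headings, replicate 1 is the vehicle of matching time for the 2 h groups and replicate 2 for the 4 h groups. A fit without 1 sample takes the spread from the groups that keep 2. Its p-values and calls thus leave out the difference between the replicates of the reduced group. The part of these replicate differences in the results was not tested beyond leaving out each sample in turn. The Dex 4 h replicates differed by transcript length: the median log2 difference of replicate 2 from replicate 1 was -0.13 over 2126 genes under 2000 bases, -0.0018 over 8400 genes of 2000 to 8000 bases and 0.27 over 1138 longer genes, while in the other groups no length class moved by more than 0.07. Among the members, ABCA1, ACACA and FASN are in the long class, and were higher in Dex 4 h replicate 2 by 0.49, 0.48 and 0.45 on the log2 scale.

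The promoters of 4 genes that carried the main differences are shown as the 250 bases before the transcription start in RefSeq on GRCh38.p14, each read 5′ to 3′ on its gene's own strand. INSIG1 lies at chr7:155297628-155297877 on the plus strand, ABCA1 at chr9:104928156-104928405 on the minus strand, HMGCS1 at chr5:43313413-43313662 on the minus strand and STARD4 at chr5:111512536-111512785 on the minus strand. Where a gene had several starts, the one farthest upstream was taken. Capitals mark matches, on either strand, to a CCAAT box (CCAAT), an E-box (CACGTG) or a DR4 element (GGTNA and GGTCA with 5 bases of any kind between them), the direct repeat that LXR receptors bind.
INSIG1: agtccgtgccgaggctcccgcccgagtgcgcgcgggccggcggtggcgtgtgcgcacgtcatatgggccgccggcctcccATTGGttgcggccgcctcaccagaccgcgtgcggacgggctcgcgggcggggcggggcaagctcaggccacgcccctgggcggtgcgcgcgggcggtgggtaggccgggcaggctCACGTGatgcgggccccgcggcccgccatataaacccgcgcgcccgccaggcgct
ABCA1: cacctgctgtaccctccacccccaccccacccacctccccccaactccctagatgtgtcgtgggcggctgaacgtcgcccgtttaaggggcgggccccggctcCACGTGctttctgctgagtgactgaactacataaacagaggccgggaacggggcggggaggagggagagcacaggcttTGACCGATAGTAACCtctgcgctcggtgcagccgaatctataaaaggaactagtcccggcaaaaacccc
HMGCS1: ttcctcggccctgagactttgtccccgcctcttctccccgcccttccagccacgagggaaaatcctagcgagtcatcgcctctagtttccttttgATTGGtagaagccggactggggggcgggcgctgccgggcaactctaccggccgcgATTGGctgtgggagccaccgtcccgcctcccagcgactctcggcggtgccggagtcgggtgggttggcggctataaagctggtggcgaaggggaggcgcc
STARD4: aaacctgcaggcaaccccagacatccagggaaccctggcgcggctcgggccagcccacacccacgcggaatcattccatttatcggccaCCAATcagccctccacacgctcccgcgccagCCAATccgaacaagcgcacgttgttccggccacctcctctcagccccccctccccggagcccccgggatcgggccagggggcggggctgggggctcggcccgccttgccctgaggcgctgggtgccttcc

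In these windows INSIG1 held a CCAAT box read on the minus strand (ATTGG), starting 170 bases before the start site, and an E-box starting 55 bases before it. ABCA1 held an E-box starting 147 bases before the start and a DR4 match, read on the minus strand, starting 69 bases before it, and was the only member with a DR4 match. HMGCS1 held CCAAT boxes starting 155 and 100 bases before the start, and STARD4 held them starting 161 and 130 bases before it. The RefSeq table matched 27 of the 32 members with 36 promoters in all. The members ACAT2, FDFT1, SQLE, ABCG1 and FASN were without an entry. CCAAT occurred in 63.9% of member promoters, against 32.9% of the 13602 promoters of tested genes. A GC box (GGGCGG) occurred in 91.7% of member promoters, against 64.0% of those of tested genes, and several of its matches overlap each other or a CCAAT box. The sterol response element core TCACNCCAC matched only in SREBF2 among the members, starting 133 bases before the start, and occurred in 0.912% of the promoters of tested genes. The longer sterol response element, searched by its textbook letters, matched at the same place and in 0.0221% of the promoters of tested genes. The glucocorticoid response element (GNACA and TGTNC with 3 bases between them) matched in 0 of the 36 member promoters and in 0.221% of those of tested genes. The DR4 element occurred in 0.176% and the E-box in 8.28% of the promoters of tested genes. These matches describe letters in a short window, and promoters of the same gene overlap in some cases.

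The members spanned a wide range of levels. The fatty acid desaturase SCD had the highest mean over the 10 samples, 409.8 RPKM, followed by the lysosomal cholesterol carrier NPC2 at 284 RPKM and by INSIG1 at 158 RPKM. FDPS and DHCR7, a prenyl diphosphate synthase and the terminal reductase of the pathway, followed at 151 and 145 RPKM, and these neighbours lay within each other's range over samples. At the low end were MYLIP at 6.28 RPKM, HSD17B7 at 5.97 RPKM, ABCA1 at 4.76 RPKM and ABCG1 at 0.548 RPKM. ABCA1 varied most, its highest sample lying 4.19 times above its lowest, followed by INSIG1 at 3.62 times, ABCG1 at 2.44 times and HMGCS1 at 2.08 times. SCAP varied least, 1.12 times.

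**Figure D1:**
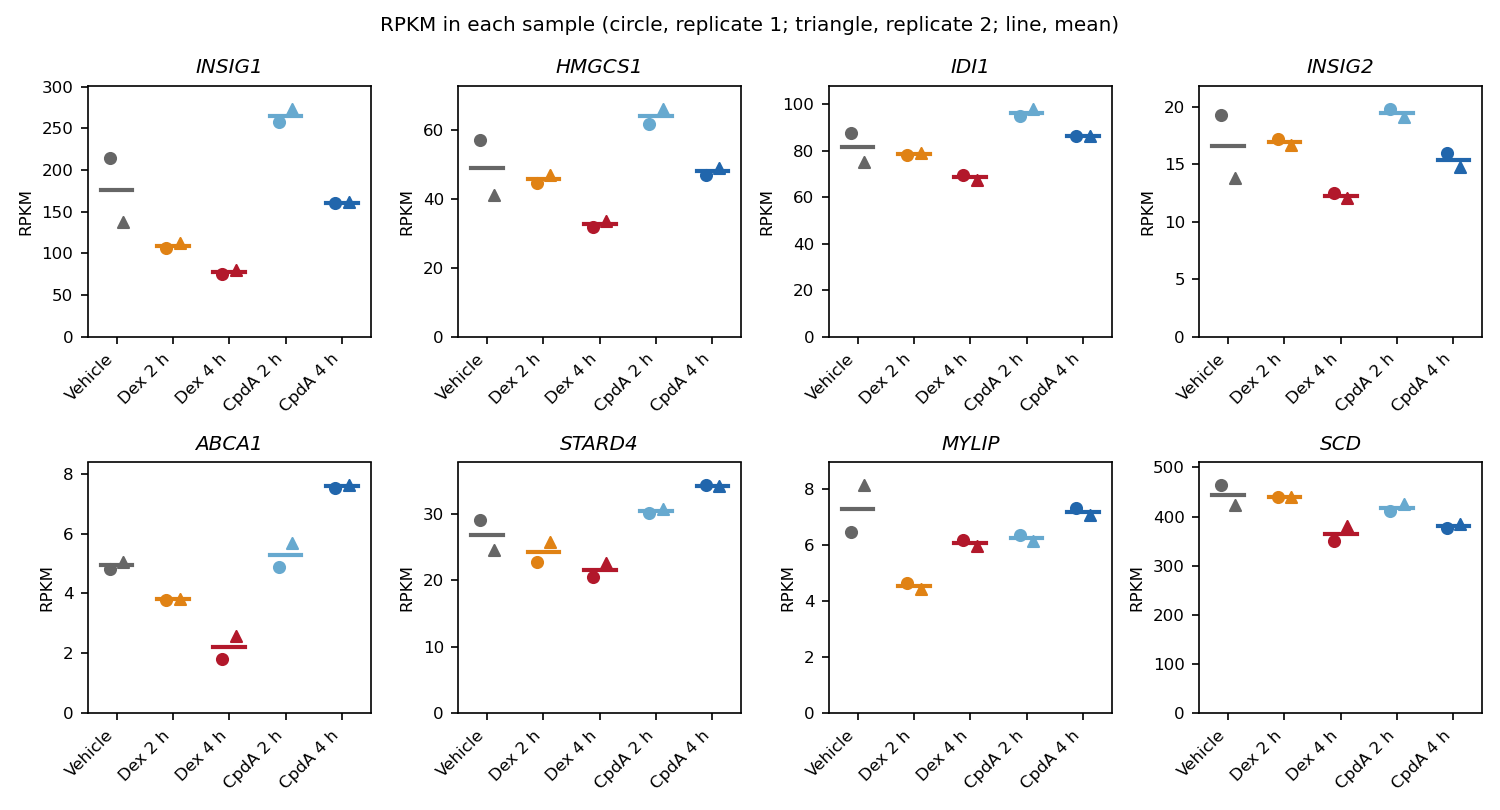
RPKM of 8 member genes in each of the 10 samples, with the groups along the horizontal axis, replicate 1 as a circle, replicate 2 as a triangle and the mean of each group as a line. INSIG1 ran from 75.5 RPKM with Dex at 4 h to 274 RPKM with CpdA at 2 h, and its vehicle samples lay apart at 214 and 137 RPKM.

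Among the regulators, INSIG1 fell with Dex and was lower with Dex than with CpdA at both times. INSIG1, the sterol-dependent retention factor of SCAP that SREBPs themselves induce, measured 214 and 137 RPKM in the vehicle samples and 106 and 112 RPKM with Dex at 2 h. With Dex at 4 h it measured 75.5 and 80.0 RPKM. With CpdA it measured 257 and 274 RPKM at 2 h and 159.8 and 161 RPKM at 4 h. Both Dex groups thus lay below both vehicle samples, CpdA at 2 h lay above both, and CpdA at 4 h lay between them. Against vehicle, INSIG1 fell with Dex at 2 h (log2 fold change -0.65 ± 0.16 SE, 1.57-fold lower, limma adjusted p = 0.0314) and at 4 h (-1.14 ± 0.16 SE, 2.21-fold lower, limma adjusted p = 0.000672). With CpdA the log2 difference was 0.63 ± 0.16 SE at 2 h (limma adjusted p = 0.0526) and -0.10 ± 0.16 SE at 4 h (limma adjusted p = 0.726). In such bulk samples, fewer cells of a kind and less RNA per cell cannot be told apart.

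The Dex 2 h call of INSIG1 was lost without any 1 of the Dex 2 h, CpdA 2 h and CpdA 4 h samples (limma adjusted p from 0.0526 to 0.18). Its size, and that of the other vehicle comparisons, depended on which vehicle sample served as the reference. With Dex the log2 difference was -0.33 at 2 h and -0.82 at 4 h without vehicle replicate 1, and -0.98 at 2 h and -1.46 at 4 h without vehicle replicate 2. With CpdA at 2 h it was 0.95 without replicate 1 and 0.31 without replicate 2. With CpdA at 4 h the direction turned, from 0.23 without replicate 1 to -0.42 without replicate 2. Against the vehicle sample of matching time, INSIG1 stood at -0.98 and -0.82 with Dex at 2 h and 4 h. With CpdA it stood at 0.31 and 0.23. The comparison between the ligands uses no vehicle sample: INSIG1 was lower with Dex than with CpdA by 2.43-fold at 2 h (log2 -1.28 ± 0.16 SE, limma adjusted p = 0.000586) and by 2.07-fold at 4 h (log2 -1.05 ± 0.16 SE, limma adjusted p = 0.000913), and leaving out any 1 of the 10 samples moved these values between -1.33 and -1.24 and between -1.09 and -1.004, with the call kept.

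The other regulators moved less. INSIG2, the INSIG form that SREBPs do not induce in most cells, measured 19.3 and 13.8 RPKM with vehicle, 17.2 and 16.7 RPKM with Dex at 2 h and 12.5 and 12.0 RPKM with Dex at 4 h. With CpdA it measured 19.9 and 19.1 RPKM at 2 h and 16.0 and 14.8 RPKM at 4 h. It fell with Dex at 4 h against vehicle (log2 -0.41 ± 0.12 SE, limma adjusted p = 0.0368), a call that only leaving out vehicle replicate 2 kept and that 9 samples ended when left out (limma adjusted p from 0.0533 to 0.0968). The log2 difference was -0.17 without vehicle replicate 1 and -0.65 without replicate 2. SREBF1, the gene of the SREBP that favours fatty acid synthesis, measured 52.8 and 48.0 RPKM with vehicle, 50.9 and 49.4 RPKM with Dex at 2 h, 49.6 and 44.2 RPKM with Dex at 4 h, 55.8 and 52.1 RPKM with CpdA at 2 h and 46.7 and 46.0 RPKM with CpdA at 4 h. SREBF2, the gene of the SREBP that favours cholesterol synthesis, measured 52.4 and 49.9 RPKM with vehicle, 52.9 and 52.5 RPKM with Dex at 2 h, 47.4 and 50.5 RPKM with Dex at 4 h, 52.5 and 53.8 RPKM with CpdA at 2 h and 50.7 and 51.8 RPKM with CpdA at 4 h. Neither transcription factor gene passed the test in any comparison, and their log2 differences from vehicle lay between -0.12 and 0.10. The largest difference of SREBF1 was that from 2 h to 4 h of CpdA, -0.22 ± 0.07 SE (limma adjusted p = 0.0639), which passed under 7 of 19 alternatives (limma adjusted p from 0.0112 to 0.328 over all 19). The 95% interval of the Dex against CpdA difference at 2 h was -0.25 to 0.05 for SREBF1 and -0.11 to 0.09 for SREBF2. The escort SCAP did not pass in any comparison either, with log2 differences between -0.11 and 0.10.

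Among the synthesis enzymes, HMGCS1 and IDI1 were, like INSIG1, lower with Dex than with CpdA at both times, at smaller size. HMGCS1, which condenses acetyl-CoA with acetoacetyl-CoA at the entry to the mevalonate pathway, measured 57.3 and 41.1 RPKM with vehicle, 44.8 and 47.0 RPKM with Dex at 2 h and 31.9 and 33.7 RPKM with Dex at 4 h. With CpdA it measured 62.0 and 66.3 RPKM at 2 h and 47.2 and 49.0 RPKM at 4 h. The Dex 4 h samples lay below all others and the CpdA 2 h samples above all others, while the remaining groups lay within the spread of the vehicle samples. HMGCS1 fell with Dex at 4 h against vehicle (log2 -0.56 ± 0.12 SE, 1.48-fold lower, limma adjusted p = 0.00842), with log2 values of -0.33 without vehicle replicate 1 and of -0.80 without replicate 2. With CpdA at 2 h its log2 difference from vehicle was 0.40 ± 0.12 SE (limma adjusted p = 0.0983). It was 0.64 without vehicle replicate 1 and 0.16 without replicate 2. With Dex at 2 h it was -0.08 (limma adjusted p = 0.794), turning from 0.16 without vehicle replicate 1 to -0.32 without replicate 2. With CpdA at 4 h it was -0.01 (limma adjusted p = 0.957), turning from 0.23 without vehicle replicate 1 to -0.25 without replicate 2. The direction with Dex at 2 h and with CpdA at 4 h thus turned with the vehicle sample used. Against the vehicle sample of matching time, HMGCS1 stood at -0.32 and -0.33 with Dex at 2 h and 4 h. With CpdA it stood at 0.16 and 0.23. HMGCS1 was lower with Dex than with CpdA at 2 h (log2 -0.48 ± 0.12 SE, limma adjusted p = 0.0315) and at 4 h (log2 -0.55 ± 0.12 SE, limma adjusted p = 0.00766). The 2 h call was lost without any 1 of the Dex 2 h, CpdA 2 h and CpdA 4 h samples (limma adjusted p from 0.0537 to 0.181), and the 4 h call without CpdA 4 h replicate 2 (limma adjusted p = 0.0517). Of its annotated exon bases, 37.7% are shared with a noncoding gene on the opposite strand, and whether the counting used strand is not stated.

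IDI1, the isomerase that readies the isoprenoid unit for condensation, measured 87.6 and 75.2 RPKM with vehicle, 78.3 and 78.8 RPKM with Dex at 2 h, 69.4 and 67.5 RPKM with Dex at 4 h, 94.7 and 97.9 RPKM with CpdA at 2 h and 86.1 and 86.2 RPKM with CpdA at 4 h. At each time the Dex and CpdA samples did not overlap. IDI1 was lower with Dex than with CpdA at 2 h (log2 -0.29 ± 0.06 SE, limma adjusted p = 0.0134) and at 4 h (log2 -0.33 ± 0.06 SE, limma adjusted p = 0.00325), and fell with Dex at 4 h against vehicle (log2 -0.25 ± 0.06 SE, limma adjusted p = 0.0181), a call lost without vehicle replicate 1 (log2 -0.14, limma adjusted p = 0.065). The 2 h call was lost without any 1 of its own 4 samples (limma adjusted p from 0.0588 to 0.104), and the 4 h call against CpdA held. Its exons share 15.0% of their bases with an antisense gene.

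MVK fell with CpdA at 4 h. MVK, the mevalonate kinase, measured 28.49 and 26.7 RPKM with vehicle and lay between 25.4 and 29.5 RPKM in the Dex samples and with CpdA at 2 h. With CpdA at 4 h it measured 22.1 and 22.52 RPKM, below every other sample. It fell with CpdA at 4 h against vehicle (log2 -0.31 ± 0.04 SE, limma adjusted p = 0.00151) and against CpdA at 2 h (log2 -0.40 ± 0.04 SE, limma adjusted p = 0.00145), and was higher with Dex than with CpdA at 4 h (log2 0.22 ± 0.04 SE, limma adjusted p = 0.00444). These 3 calls held without each of the 10 samples in turn. LSS, the lanosterol synthase, and EBP, a sterol isomerase, were also higher with Dex than with CpdA at 4 h, by 0.20 (limma adjusted p = 0.00911) and 0.17 (limma adjusted p = 0.0189) on the log2 scale. EBP also fell with CpdA at 4 h against vehicle (log2 -0.18, limma adjusted p = 0.028), a call lost without 7 of the samples taken singly, both vehicle samples among them (log2 -0.15 without replicate 1 and -0.20 without replicate 2, limma adjusted p = 0.126 and 0.0512). In the difference between the ligands, both genes lost the call without either CpdA 4 h sample, and EBP also without Dex 4 h replicate 1 (limma adjusted p from 0.053 to 0.11), and 36.4% of the exon bases of EBP are shared with a same-strand gene model.

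SQLE, the squalene epoxidase, measured 23.5 and 21.5 RPKM with vehicle, 23.3 and 23.5 RPKM with Dex at 2 h, 21.4 and 22.6 RPKM with Dex at 4 h, 22.4 and 23.5 RPKM with CpdA at 2 h and 19.5 and 20.9 RPKM with CpdA at 4 h. It passed the test in no comparison, and its largest log2 difference was -0.18 from 2 h to 4 h of CpdA (limma adjusted p = 0.0728). Of the 18 enzymes, PMVK, MVD, FDPS, SQLE, CYP51A1, TM7SF2 and DHCR7 passed in none of the comparisons. Of the exon bases of CYP51A1, 74.1% are shared with other gene models, same-strand protein-coding ones among them. The demethylation complex members NSDHL and MSMO1, the ketoreductase HSD17B7, the desaturase SC5D, the thiolase ACAT2 and the squalene synthase FDFT1 passed in at least 1 comparison at log2 differences between -0.29 and 0.16. Each of these calls was lost without at least 5 of the 10 samples taken singly, 1 or more of its own comparison among them, at limma adjusted p from 0.0518 to 0.235. Against either vehicle sample alone, the Dex 4 h difference of NSDHL was 0.22 without replicate 1 and 0.10 without replicate 2 (limma adjusted p = 0.00974 and 0.134), and that of SC5D was -0.19 and -0.23 (limma adjusted p = 0.161 and 0.0876).

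Among the transport genes, ABCA1 separated the ligands most. ABCA1, the pump that loads cell cholesterol onto apolipoprotein A-I, measured 4.82 and 5.05 RPKM with vehicle, 3.77 and 3.83 RPKM with Dex at 2 h and 1.82 and 2.59 RPKM with Dex at 4 h. With CpdA it measured 4.87 and 5.68 RPKM at 2 h and 7.53 and 7.61 RPKM at 4 h. The Dex 4 h samples were the lowest and the CpdA 4 h samples the highest of the series, and neither group overlapped with vehicle. ABCA1 fell with Dex at 4 h (log2 -1.15 ± 0.14 SE, 2.22-fold lower, limma adjusted p = 0.000262) and rose with CpdA at 4 h (log2 0.61 ± 0.14 SE, 1.52-fold higher, limma adjusted p = 0.0141). At 2 h the log2 differences from vehicle were -0.37 (limma adjusted p = 0.153) with Dex and 0.09 (limma adjusted p = 0.775) with CpdA.

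Between the ligands, ABCA1 was lower with Dex by 3.38-fold at 4 h (log2 -1.76 ± 0.14 SE, limma adjusted p = 1.33e-05), and at 2 h the log2 difference was -0.46 ± 0.14 SE (limma adjusted p = 0.0605). That difference changed by -1.30 ± 0.20 SE from 2 h to 4 h (limma adjusted p = 0.00605 for the interaction), and ABCA1 was the only one of the 32 members for which the interaction passed. Its transcript is in the length class in which the Dex 4 h replicates differed. Without Dex 4 h replicate 1 the log2 difference from vehicle at 4 h was -0.90, without replicate 2 it was -1.39, and the call held either way. The rise with CpdA at 4 h lost its call without vehicle replicate 1 (limma adjusted p = 0.072) or without either CpdA 4 h sample (limma adjusted p from 0.0772 to 0.0806), at log2 values of 0.58 to 0.64. ABCG1, the related exporter, lay at the low end, with 0.301 to 0.735 RPKM over the 10 samples and no call.

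STARD4, a soluble carrier that moves cholesterol between membranes and is itself an SREBP target, measured 29.1 and 24.5 RPKM with vehicle, 22.7 and 25.8 RPKM with Dex at 2 h and 20.5 and 22.6 RPKM with Dex at 4 h. With CpdA it measured 30.2 and 30.8 RPKM at 2 h and 34.3 and 34.2 RPKM at 4 h. At 4 h the Dex samples lay below both vehicle samples and the CpdA samples above both. STARD4 fell with Dex at 4 h (log2 -0.31 ± 0.09 SE, limma adjusted p = 0.0271) and rose with CpdA at 4 h (log2 0.36 ± 0.09 SE, limma adjusted p = 0.0194), and it was lower with Dex than with CpdA by 1.59-fold at 4 h (log2 -0.67 ± 0.09 SE, limma adjusted p = 0.000351). The fall with Dex lost its call without vehicle replicate 1 (log2 -0.19, limma adjusted p = 0.163) or Dex 4 h replicate 1 (log2 -0.24, limma adjusted p = 0.127). The rise with CpdA lost its call without vehicle replicate 2 (log2 0.23, limma adjusted p = 0.0974) or either CpdA 4 h sample (limma adjusted p from 0.0941 to 0.1). The difference between the ligands at 4 h kept its call without each sample, at log2 values from -0.74 to -0.60.

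MYLIP, the ubiquitin ligase that marks lipoprotein receptors for degradation, fell with Dex at 2 h. It measured 6.47 and 8.14 RPKM with vehicle, 4.66 and 4.44 RPKM with Dex at 2 h, 6.17 and 5.98 RPKM with Dex at 4 h, 6.37 and 6.15 RPKM with CpdA at 2 h and 7.31 and 7.07 RPKM with CpdA at 4 h. The Dex 2 h samples lay below all others. MYLIP fell with Dex at 2 h against vehicle (log2 -0.66 ± 0.09 SE, 1.58-fold lower, limma adjusted p = 0.00158) and was lower than with CpdA at 2 h (log2 -0.45 ± 0.09 SE, limma adjusted p = 0.0113). From 2 h to 4 h of Dex it rose (log2 0.41 ± 0.09 SE, limma adjusted p = 0.0223), and at 4 h its log2 difference from vehicle was -0.25 (limma adjusted p = 0.0774). The fall against vehicle at 2 h kept its call without each sample, whereas the difference from CpdA lost it without any 1 of its own 4 samples (limma adjusted p from 0.0514 to 0.0874) and the rise between times without either Dex 2 h sample or Dex 4 h replicate 1 (limma adjusted p from 0.0754 to 0.128). MYLIP was 0.33 higher on the log2 scale in vehicle replicate 2 than in replicate 1, beside the 0.41 between the Dex times. Against the vehicle sample of matching time, MYLIP stood at -0.50 on the log2 scale with Dex at 2 h. At 4 h the Dex samples, at 6.17 and 5.98 RPKM, lay below vehicle replicate 2, at 8.14 RPKM. The part of the vehicle difference in the rise between times was not tested. Of the lysosomal transporters that release cholesterol, NPC1 was lower with Dex than with CpdA at 4 h (log2 -0.37 ± 0.11 SE, limma adjusted p = 0.0248), a call lost without Dex 4 h replicate 1 or either CpdA 4 h sample (limma adjusted p from 0.0598 to 0.143), with log2 values of -0.22 and -0.52 without Dex 4 h replicates 1 and 2, and NPC2 passed in no comparison.

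Of the fatty acid genes, SCD was the member that passed. SCD, which puts the double bond into stearate, measured 464 and 424 RPKM with vehicle, 440.3 and 441 RPKM with Dex at 2 h, 350.1 and 380.5 RPKM with Dex at 4 h, 412 and 425 RPKM with CpdA at 2 h and 376 and 385 RPKM with CpdA at 4 h. At 4 h both ligands lay below both vehicle samples. SCD fell with Dex (log2 -0.28 ± 0.06 SE, limma adjusted p = 0.00566) and with CpdA (log2 -0.22 ± 0.06 SE, limma adjusted p = 0.0248) at 4 h, and the difference between the ligands at 4 h was -0.06 with a 95% interval of -0.19 to 0.07. The call with CpdA was lost without vehicle replicate 1 or either CpdA 4 h sample (limma adjusted p from 0.0944 to 0.152). FASN, the fatty acid synthase, measured 98.7 and 135 RPKM in the Dex 4 h replicates, and ACACA, the carboxylase before it, 8.63 and 12.1 RPKM. Neither passed in any comparison.

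**Figure D2:**
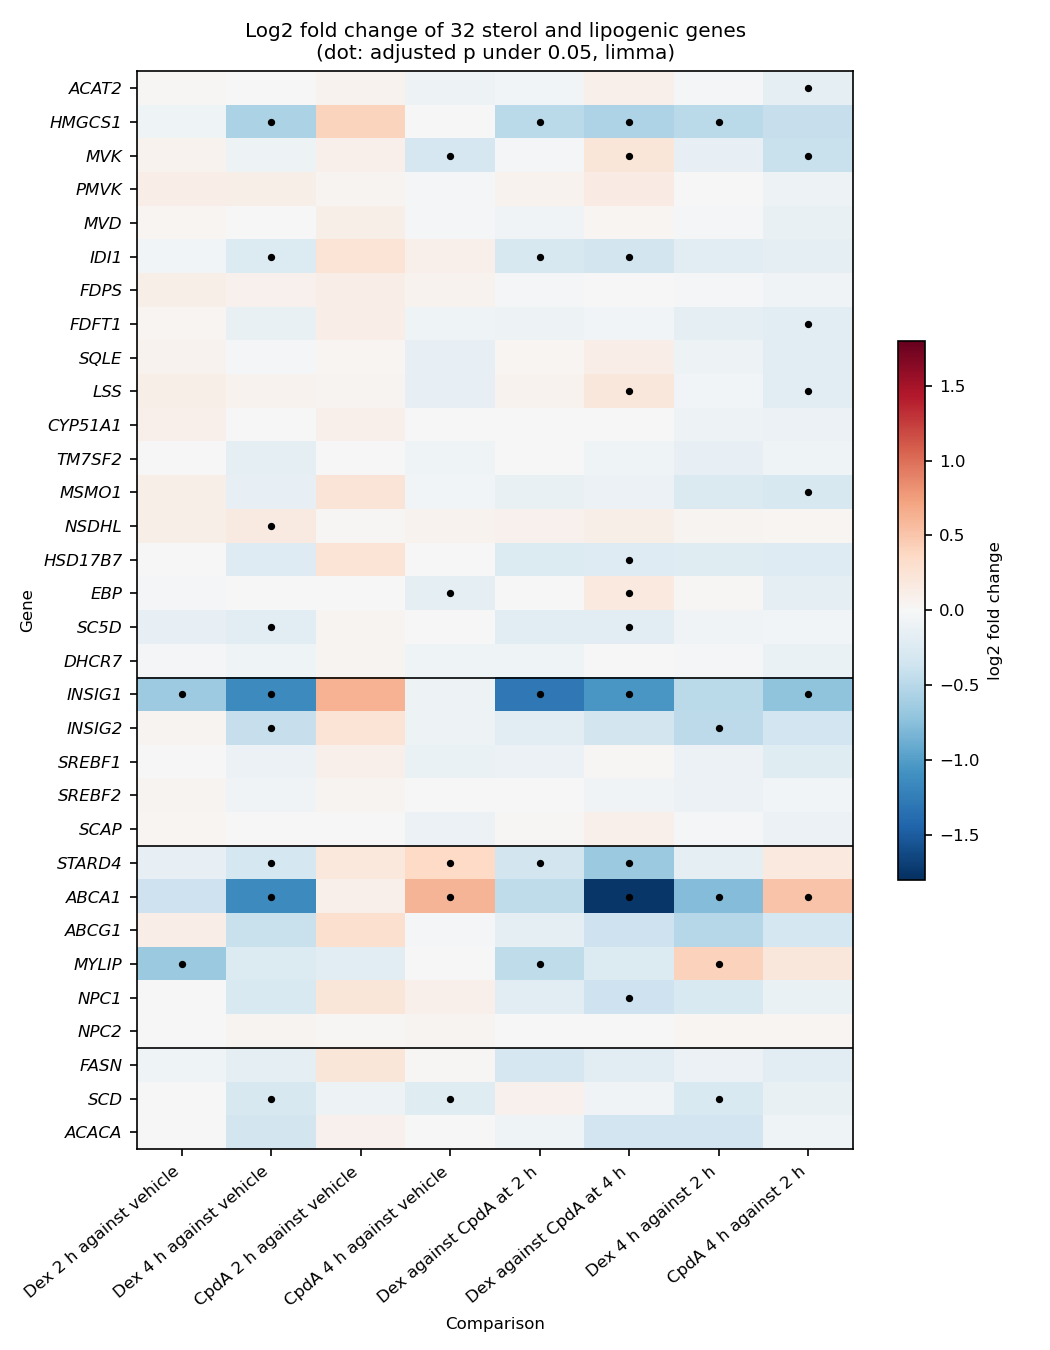
Log2 fold change of the 32 genes (rows, in the order synthesis, regulation, transport and fatty acid synthesis) in 8 comparisons (columns), with red for higher, blue for lower and a dot where the limma adjusted p-value was under 0.05. The deepest blue cell is ABCA1, Dex against CpdA at 4 h, at -1.76, and SREBF1 and SREBF2 hold no dot.

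Counted over the list, few members differed from vehicle, and most shares called lay near or below those of all genes. A member was called at a limma p-value, Benjamini-Hochberg adjusted over the 12713 genes, under 0.05. With Dex at 2 h against vehicle 0 members were higher (background 4.49% of all genes) and 2 lower, INSIG1 and MYLIP (background 5.82%). At an unadjusted p under 0.05 there were 2 members higher, where 7.94% of all genes were, and 3 lower, where 13.8% were. The median log2 difference was 0.01 over the members and -0.02 over all genes, and that of the members was 0.08 without vehicle replicate 1 and -0.04 without replicate 2. Without vehicle replicate 1 there were 5 members higher (5.02% of all genes in that fit) and 2 lower (6.82%) at 2 h, and without replicate 2 there were 0 (3.63%) and 3 (4.19%). With Dex at 4 h 1 member was higher, NSDHL at 0.16 (background 9.26%), and 8 were lower (background 18.2%): INSIG1, ABCA1, HMGCS1, INSIG2, STARD4, SCD, IDI1 and SC5D. At an unadjusted limma p under 0.05 there was 1 member higher, where 12.4% of all genes were, and 13 lower, where 25.9% were. The median log2 difference was -0.14 over the 32 members against -0.05 over all genes, with 26 of 32 members below 0. Without vehicle replicate 1 the medians were -0.06 and -0.05, near each other, and without replicate 2 they were -0.17 and -0.05. Under median scaling the median of the members was -0.07. Without vehicle replicate 1 there were 2 higher (7.7% of all genes in that fit) and 5 lower (14.1%) at 4 h, and without replicate 2 there were 0 (8.12%) and 10 (15%). Under median scaling of the samples the split of the members at 4 h became 1 higher and 4 lower, and the share of higher genes among all called genes went from 33.8% to 49.9%. INSIG1, HMGCS1 and ABCA1 kept their call at 4 h under each of the 19 alternatives.

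With CpdA at 2 h against vehicle limma called 0 members (background 1.89% higher and 4.29% lower). At an unadjusted p under 0.05 there were 6 members, all higher: INSIG1, HMGCS1, IDI1, MSMO1, HSD17B7 and FDFT1. Of all genes, 6.09% were higher and 14.2% lower at that threshold. The log2 difference was above 0 for 28 of 32 members, with a median of 0.09 against -0.02 over all genes. The median of the members was 0.14 without vehicle replicate 1 and 0.03 without replicate 2. Without vehicle replicate 1, the higher of the pair for most members, 8 members were called higher (3.59% of all genes in that fit) and 1 lower (5.79%), and without replicate 2 there were 1 (1.21%) and 0 (1.93%). Median scaling called 2 members, both higher, while the share of higher genes among all called genes went from 30.5% to 44.6%. With CpdA at 4 h 2 members were higher (background 6.76%), ABCA1 and STARD4, and 3 lower (background 13.8%), MVK, SCD and EBP. At an unadjusted limma p under 0.05 there were 2 members higher, where 11.5% of all genes were, and 7 lower, where 21.8% were. The median log2 difference was -0.03 over the members and -0.04 over all genes, and that of the members was 0.03 without vehicle replicate 1, 0.03 under median scaling and -0.08 without replicate 2. Without vehicle replicate 1 there were 4 higher (5.4% of all genes in that fit) and 1 lower (9.69%), and without replicate 2 there were 1 (5.77%) and 6 (11.3%). Median scaling gave 2 higher and 1 lower, and the share of higher genes among all called genes went from 33% to 55.7%.

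Set directly against each other, the ligands differed in INSIG1, HMGCS1, STARD4 and IDI1 at both times, all lower with Dex. With Dex against CpdA at 2 h 0 members were higher (background 7.53%) and 5 lower (background 6.18%): INSIG1, HMGCS1, MYLIP, STARD4 and IDI1. At an unadjusted p under 0.05 there were also 0 higher, where 12.9% of all genes were, and 8 lower, where 11.3% were. The log2 difference was below 0 for 26 of 32 members, with a median of -0.08 against -0.01 over all genes. Of these calls, that of INSIG1 held when any 1 sample was left out, and the number called then ranged from 1 to 7. At 4 h 3 members were higher (background 15.4%), MVK, LSS and EBP, and 8 lower (background 18.0%): ABCA1, INSIG1, STARD4, HMGCS1, NPC1, IDI1, HSD17B7 and SC5D. At an unadjusted limma p under 0.05 there were 4 members higher, where 19.6% of all genes were, and 11 lower, where 23.5% were. The median was -0.06 over the members and -0.02 over all genes. Without Dex 4 h replicate 1 there were 2 higher (15.2% of all genes in that fit) and 5 lower (17.1%), and without replicate 2 there were 4 (18.7%) and 10 (22.1%). In the interaction of ligand and time 0 members were higher (background 3.04%) and 1 lower, ABCA1 (background 3.56%). At an unadjusted p under 0.05 there were 3 members higher, where 8.66% of all genes were, and 2 lower, where 11.6% were.

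**Figure D3:**
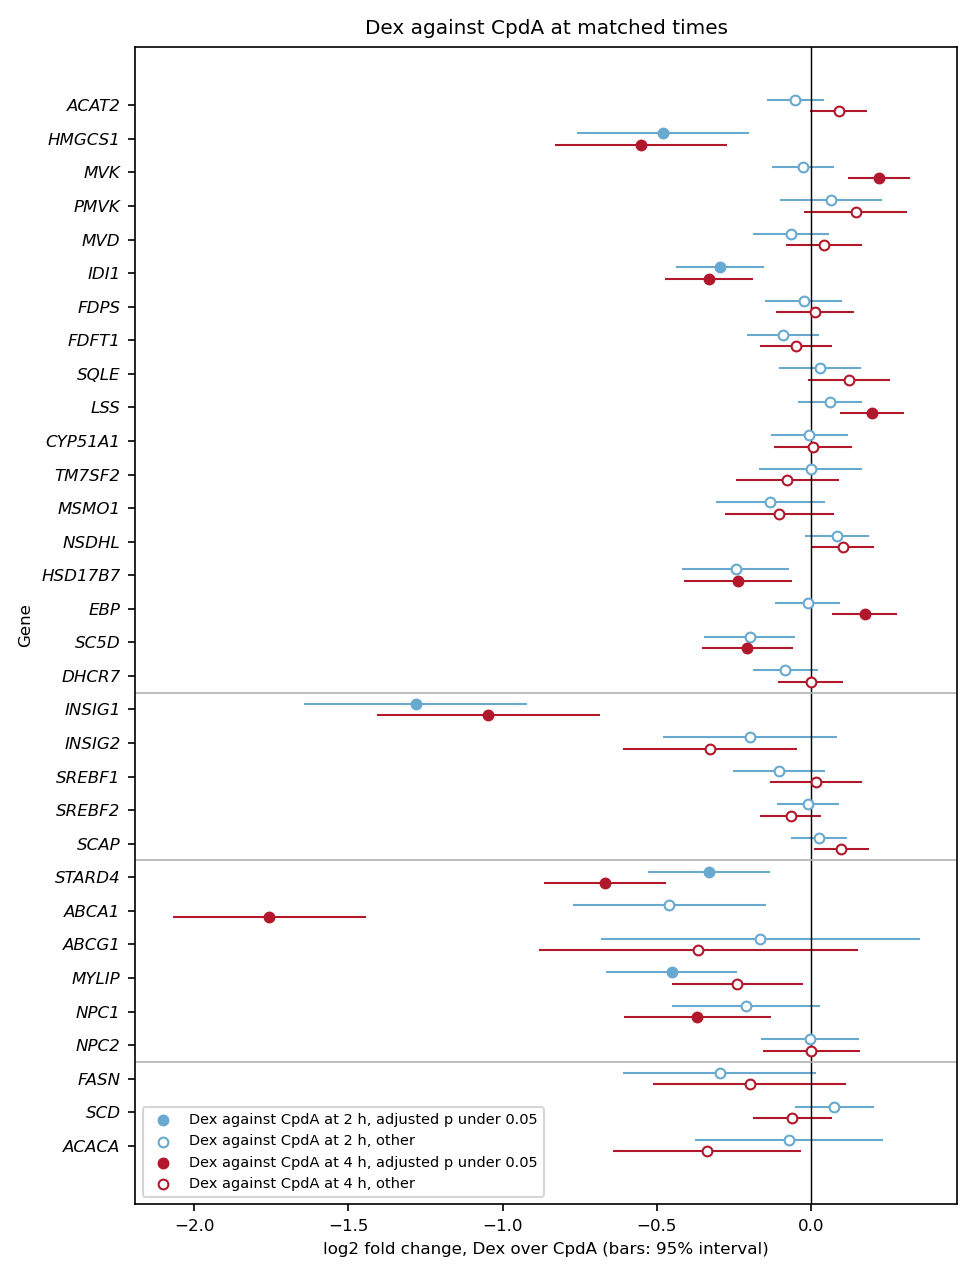
Log2 fold change of Dex over CpdA for the 32 genes at 2 h (light blue) and 4 h (red), with 95% intervals as bars and filled points where the limma adjusted p-value was under 0.05. INSIG1 lies at -1.28 and -1.05, and ABCA1 moves from -0.46 at 2 h to -1.76 at 4 h.

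With either ligand, most members had lower values at 4 h than at 2 h, and a minority passed the test. The members that fell past it were 12.5% of the list with Dex and 18.8% with CpdA, against 9.02% and 7.20% of all genes. From 2 h to 4 h of Dex 1 member rose, MYLIP (background 4.55%), and 4 fell (background 9.02%): ABCA1 at -0.78 (limma adjusted p = 0.00723), HMGCS1 at -0.49, INSIG2 at -0.47 and SCD at -0.27. INSIG1 did not pass, at -0.49 (limma adjusted p = 0.0762). It passed when either vehicle sample was left out, in fits whose spread omits the difference between those samples. From 2 h to 4 h of CpdA 1 member rose, ABCA1 at 0.52 (background 5.21%, limma adjusted p = 0.0416), and 6 fell (background 7.20%): INSIG1 at -0.72, MVK, MSMO1, FDFT1, LSS and ACAT2. The rise of ABCA1 lost its call without any 1 of 8 samples, all but the Dex 4 h samples (limma adjusted p from 0.0529 to 0.244). Except for MVK, the calls of the other members between times were lost without at least 1 sample of the comparison itself. Those of INSIG1 with CpdA and of ABCA1, MYLIP and SCD with Dex were lost only without such samples. The remaining ones were lost also without samples of other groups. At an unadjusted limma p under 0.05 there were 1 member higher and 14 lower with Dex, where 10.6% and 18.9% of all genes were. With CpdA there were 1 higher and 17 lower, where 12.2% and 16% were. The log2 difference between times was below 0 for 28 of 32 members with Dex and for 27 with CpdA, with medians of -0.11 and -0.14 against -0.03 and -0.01 over all genes. Under median scaling the members' split was 1 higher and 3 lower for Dex and 1 higher and 2 lower for CpdA, and the share of higher genes among all called genes went from 33.5% to 53.2% and from 42% to 54.5%.

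The difference between the vehicle samples was set beside the difference between times. Over the 32 members, vehicle replicate 2 minus replicate 1 had a Pearson r of 0.51 (Spearman rho 0.45) with the Dex difference between times and of 0.65 (Spearman rho 0.47) with that of CpdA. These are descriptions across 32 genes, which share libraries and are not independent replicates. The log2 difference of INSIG1 was -0.64 between the vehicle samples, -0.49 between the Dex times and -0.72 between the CpdA times. HMGCS1 had -0.48, -0.49 and -0.41 and INSIG2 -0.48, -0.47 and -0.34 in the same order. ABCA1 did not share this, with 0.07 between the vehicle samples, -0.78 with Dex and 0.52 with CpdA.

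**Figure D4:**
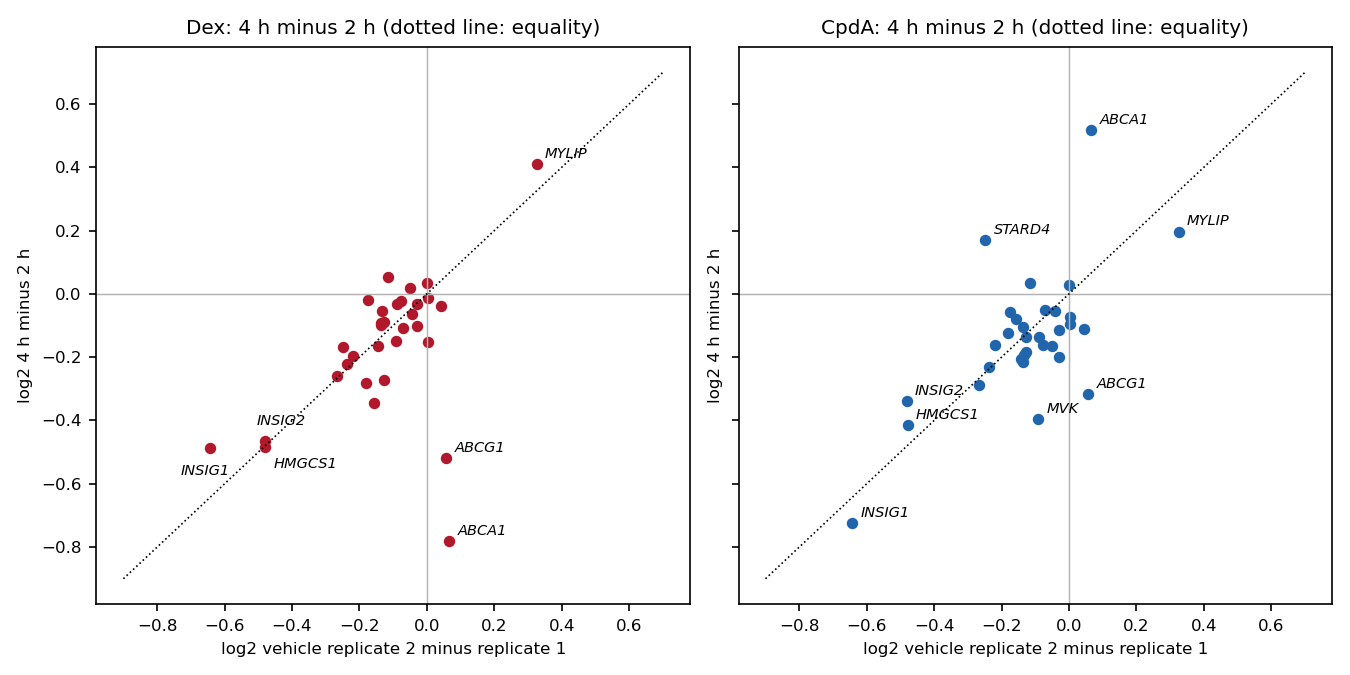
Log2 difference of vehicle replicate 2 from replicate 1 (horizontal) against the log2 difference of 4 h from 2 h (vertical) for the 32 genes, with Dex on the left and CpdA on the right and equality as a dotted line. INSIG1, at -0.64 on the horizontal axis, lies near the line in both panels, and ABCA1 lies off it at -0.78 with Dex and 0.52 with CpdA.

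A further 32 genes of the same pathways, listed by function, all passed the filter on low values. They include the citrate lyase ACLY, the SREBP proteases MBTPS1 and MBTPS2, the LXR and RXR receptors, the esterifying enzyme SOAT1, oxysterol-binding proteins and fatty acid desaturases and elongases. With Dex at 2 h against vehicle 0 were higher (background 4.49% of all genes) and 1 lower (5.82%), and with Dex at 4 h 0 were higher (9.26%) and 6 lower (18.2%). With CpdA at 2 h 0 were higher (1.89%) and 0 lower (4.29%), and at 4 h 2 were higher (6.76%) and 3 lower (13.8%). With Dex against CpdA 3 were higher (7.53%) and 1 lower (6.18%) at 2 h, and 6 higher (15.4%) and 5 lower (18.0%) at 4 h. From 2 h to 4 h 0 rose (4.55%) and 5 fell (9.02%) with Dex, and 2 rose (5.21%) and 5 fell (7.20%) with CpdA. Only OSBP, an oxysterol-binding protein that exchanges cholesterol between endoplasmic reticulum and Golgi, passed with a fold over 1.5. It measured 21.7 and 21.4 RPKM with vehicle, 22.4 and 23.3 RPKM with Dex at 2 h, 21.96 and 24.9 RPKM with Dex at 4 h, 24.0 and 24.8 RPKM with CpdA at 2 h and 32.8 and 33.3 RPKM with CpdA at 4 h. The CpdA 4 h samples stood above all others, and OSBP rose there against vehicle (log2 0.61 ± 0.06 SE, 1.53-fold higher, limma adjusted p = 0.000177).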

How the data were processed

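RNA-seq was measured in 10 of the 22 samples of the series, in 5 groups of 2 labelled biological replicates, and the remaining ChIP samples were not analysed here. Single-end reads had been aligned by the authors in TopHat 2.0.13, and they quantified them in Partek Genomics Suite 6.6 and deposited RPKM, 1 value for each gene symbol and sample. The submitters' processing notes name hg19 without saying for which data it was used, and neither read totals nor the strand setting are given in the sources used here, so no counting interval was computed.

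Values were analysed as log2(RPKM + 0.1), which understates the change of low genes, without further scaling. A gene entered where 2 samples or more reached 0.5 RPKM. R 4.3.3 with limma 3.58.1 estimated the mean of each of the 5 groups in a single fit, its variance prior following the level of the gene, and Benjamini-Hochberg adjustment ran over the 12713 genes. The fit was tested on simulated data. Differences are given with standard errors and 95% intervals from this fit. The replicate numbers were checked for pairing.

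All members are accounted for. Values in every sample were given for members with an adjusted p-value under 0.05 and a fold over 1.5 in any comparison and for HMGCS1, SQLE, INSIG1, SREBF1, SREBF2, ABCA1 and SCD. Those of INSIG2, IDI1 and MVK were added after their values had been seen. The members and gene lists were chosen with earlier results of these data known. The alternatives were pseudocounts of 1 and 0.01, no filter, RPKM of at least 1 in every sample, quantile normalization, median scaling, no abundance trend, only the samples of a comparison, the replicate number as a block, and each sample left out in turn. Exon overlaps and transcript lengths came from GENCODE v44 lifted to GRCh37, with a length for 91.7% of the genes tested. Promoters came from RefSeq on GRCh38.p14. MS4A1, a further marker, was not analysed here. Tables and figures used Python 3.11.15 with pandas 2.3.3 and matplotlib 3.10.9.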

Additional observations from a re-analysis of the deposited data

Results flagged for a closer look

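The difference of ABCA1 between the ligands changed with time: Dex minus CpdA was -0.46 on the log2 scale at 2 h and -1.76 at 4 h, a change of -1.30 (limma interaction, adjusted p = 0.00605). From 2 h to 4 h ABCA1 was lower in both Dex samples, 3.77 and 3.83 against 1.82 and 2.59 RPKM, and higher in both CpdA samples, 4.87 and 5.68 against 7.53 and 7.61 RPKM. Leaving out each sample in turn moved the change between -1.54 and -1.05 with the call kept. The Dex 4 h replicates differed by transcript length in a class that holds ABCA1, and the part of this in the result was not tested beyond leaving out either sample. Over the 1138 genes of 8000 bases or more, the median log2 difference was -0.13 for Dex at 4 h against vehicle. It was -0.06 for Dex against CpdA at 4 h and -0.11 for the interaction.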

How the results depend on the processing

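Of 45 called differences of members, 13 kept their call under all 19 alternatives, 32 lost it under at least 1, and none changed direction. No filter gave 1 called member for Dex at 2 h, 1 for CpdA at 4 h, 3 for Dex against CpdA at 2 h, and 1 and 2 for the time differences of Dex and CpdA. No abundance trend gave 1 for Dex at 2 h, 5 for Dex at 4 h, 3 for Dex against CpdA at 2 h and 3 and 2 for the time differences. Median scaling gave 5 for Dex at 4 h, 2 for CpdA at 2 h, 3 for CpdA at 4 h, 8 for Dex against CpdA at 2 h and 3 for the CpdA time difference. Only the samples of the comparison gave 3 for Dex at 4 h, 9 for Dex against CpdA at 2 h, 19 for the CpdA time difference and 2 for the interaction. RPKM of at least 1 in every sample gave 2 for CpdA at 2 h and 2 for the interaction, and quantile normalization gave 2 for the interaction. The cause of these changes was not tested. Member counts in this section stand without the share of all genes called under the same setting, and so describe no change particular to these genes. Under median scaling the calls among all genes moved too. For the CpdA time difference they went from 662 higher and 915 lower to 813 and 680. Leaving out each sample in turn gave 1 to 7 called members for Dex at 2 h, 6 to 13 for Dex at 4 h, 0 to 9 for CpdA at 2 h and 1 to 7 for CpdA at 4 h. It gave 1 to 7 and 5 to 14 for Dex against CpdA at 2 h and 4 h, 0 to 11 and 1 to 13 for the time differences of Dex and CpdA, and 1 to 4 for the interaction. Without vehicle replicate 1 the CpdA 4 h differences of HMGCS1 and INSIG1 from vehicle turned from -0.01 and -0.10 to 0.23 and 0.23, and without replicate 2 they were -0.25 and -0.42. Scaling moved the median of all genes by at most 0.069 on the log2 scale.

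Whether the replicate numbers pair the samples was not settled: same-numbered deviations correlated between -0.057 and 0.20 over 10 pairs of groups, 3 of them over 0.1. These correlations run over all genes tested, and in the vehicle group the number also goes with the time in the heading. With the replicate block the called members were 2, 9, 0, 6, 7, 12, 6 and 8 for the 8 comparisons in the order of the heat map, and 2 for the interaction.

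Groups hold 2 samples, read totals are not known, and the standard error of low genes was larger, 0.23 on the log2 scale for ABCG1 against 0.04 for SREBF2. The p-values measure the spread between the samples deposited.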
